A study of Mus musculus with 2 samples.

Results

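A set of 10 genes that tie the cytoskeleton to the nucleus was followed in mouse macrophages grown in 2D or in 3D culture. They encode the intermediate filament protein vimentin (Vim), its crosslinker plectin (Plec), the lamins (Lmna, Lmnb1, Lmnb2), the lamin partners lamin B receptor (Lbr) and emerin (Emd), and parts of the LINC complex (Sun1, Sun2, Syne1). The 10 genes were chosen by name, with earlier results of these data known. All 10 were found among the 52550 gene identifiers of the count tables. They belong to the 11673 genes measured, meaning a mean of at least 1 count per 1000000 (CPM) after TMM scaling. The cells were RAW264.7, an established macrophage-like line from a mouse tumour induced by Abelson leukaemia virus, left untreated in both groups. The labels name neither a time in culture nor a matrix or device for the 3D culture.

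Each culture method had 1 library of polyadenylated RNA, with 14371084 counts in 2D and 16652503 in 3D. No difference given here therefore has a replicate check, and tests across cultures could not be made. The 95% intervals given with ratios are exact and cover counting error alone. They treat reads without molecular identifiers as independent molecules and hold no spread between cultures. In bulk RNA, fewer cells of a type and less RNA per cell cannot be told apart.

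Intermediate filaments are rope-like polymers. Vimentin forms them in the cytoplasm of macrophages and other cells of mesenchymal origin, and plectin links them to actin, microtubules and the outer nuclear membrane. The lamins form a meshwork under the inner nuclear membrane, where A-type lamins, made from Lmna, are known to scale with tissue stiffness, and B-type lamins are present in nearly all cells. SUN proteins in the inner membrane and nesprins, such as the product of Syne1, in the outer membrane join across the perinuclear space as the LINC complex and pass force between cytoskeleton and lamina.

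Lmna encodes 2 main lamins by splicing, and gene-level counts add them together. The last 48 coding bases, stop codon included, are shown because they are where the lamin proteins differ in their processing: the capitals mark the TGC codon of the cysteine that receives a farnesyl lipid. The sequences are given 5′ to 3′ on the minus strand of build mm10, at chr3:88482074-88482366 for prelamin A, chr3:88483297-88483344 for lamin C and chr10:80902859-80903217 for lamin B2. The stretches of prelamin A and lamin B2 run across an exon junction.
prelamin A: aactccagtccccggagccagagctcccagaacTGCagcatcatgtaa
lamin C: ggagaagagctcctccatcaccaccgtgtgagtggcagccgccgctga
lamin B2: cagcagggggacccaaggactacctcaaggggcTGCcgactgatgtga
Prelamin A and lamin B2 carry the codon at that place, and lamin C does not. The counts of Lmna below cannot be divided between prelamin A and lamin C.

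RefSeq promoter windows, 250 bases before to 50 after the start (GRCm38.p6), are shown for the 2 genes with the highest ratios of 3D over 2D, Vim and Lmna (the first of 2 windows), and for Lbr, one of the genes with lower levels in 3D. They lie at chr2:13574061-13574360 on the plus strand for Vim, chr3:88503303-88503602 on the minus strand for Lmna and chr1:181842352-181842651 on the minus strand for Lbr. Capitals mark letter matches, on either strand, to the GC box GGGCGG, the CCAAT box, the TATA box TATAAA and the AP-1 site TGANTCA.
Vim: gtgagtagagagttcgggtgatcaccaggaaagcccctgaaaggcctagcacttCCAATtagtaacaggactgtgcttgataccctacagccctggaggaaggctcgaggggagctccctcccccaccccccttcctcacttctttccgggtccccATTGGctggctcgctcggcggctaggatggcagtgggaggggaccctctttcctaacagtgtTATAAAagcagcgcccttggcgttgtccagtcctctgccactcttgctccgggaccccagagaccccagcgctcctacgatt
Lmna: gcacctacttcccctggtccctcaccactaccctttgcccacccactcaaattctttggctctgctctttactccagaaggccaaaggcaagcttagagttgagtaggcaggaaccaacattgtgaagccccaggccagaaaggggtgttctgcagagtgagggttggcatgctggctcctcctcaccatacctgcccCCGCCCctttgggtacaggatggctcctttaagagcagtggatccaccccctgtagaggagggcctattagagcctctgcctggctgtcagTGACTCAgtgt
Lbr: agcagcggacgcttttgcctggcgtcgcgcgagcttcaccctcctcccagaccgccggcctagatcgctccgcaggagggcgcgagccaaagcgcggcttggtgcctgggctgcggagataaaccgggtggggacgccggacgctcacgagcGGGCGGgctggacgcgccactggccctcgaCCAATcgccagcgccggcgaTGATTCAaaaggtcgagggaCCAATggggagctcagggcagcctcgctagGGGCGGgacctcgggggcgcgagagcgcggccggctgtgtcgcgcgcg
The Vim window held 2 CCAAT matches and 1 TATA match. The Lmna window held 1 GC box and 1 AP-1 match, and the Lbr window held 2 GC boxes, 2 CCAAT matches and 1 AP-1 match. Of 32851 windows of all genes, 35.66% held the GC box, 37.41% the CCAAT box, 13.62% the TATA box and 7.81% the AP-1 site. The Lbr window had 72.0% GC, against 59.3% for Vim, 56.3% for Lmna and a median of 52.7% over all windows. Among windows not shown, the first of Sun1 and that of Sun2 had 71.3%, and the first of Syne1 had 69.0%. The first window of Lmnb2 had 55.3% and that of Emd 53.7%. Vim, Lmna and Emd, at least 2-fold higher in 3D, thus had lower values here than Lbr and Syne1, at least 2-fold lower. Further windows of Syne1 had 40.3% and 50.3%, so this order depends on the window taken. The part of promoter GC content in the ratios was not tested. These matches describe the letters and say nothing about binding.

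Vim and Lmna had the highest ratios of the 10 genes, and Syne1 and Lbr the lowest. Past 2-fold with more in 3D were 3 of the 10 genes (Vim, Lmna and Emd), where 18.7% of all measured genes were higher by the same rule. Past 2-fold with less in 3D were 2 of the 10 (Lbr and Syne1), where 20.8% of all measured genes were lower. The remaining 5 lay between these limits. All measured genes gave 2181 higher and 2426 lower calls under TMM scaling, against 657 and 4292 under total counts and 1108 and 3461 when libraries were scaled to 20 reference genes. The median log2 ratio of the 10 genes was 0.24, beside 0.05 for all measured genes. Total counts lowered the all-gene median to -0.56 and the reference genes to -0.32, and the log2 ratios of the 10 genes shifted with it. Together the 10 genes took up 0.404% of all counts in 2D and 0.883% in 3D, of which Vim alone held 0.173% and 0.603%.

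**Figure D1:**
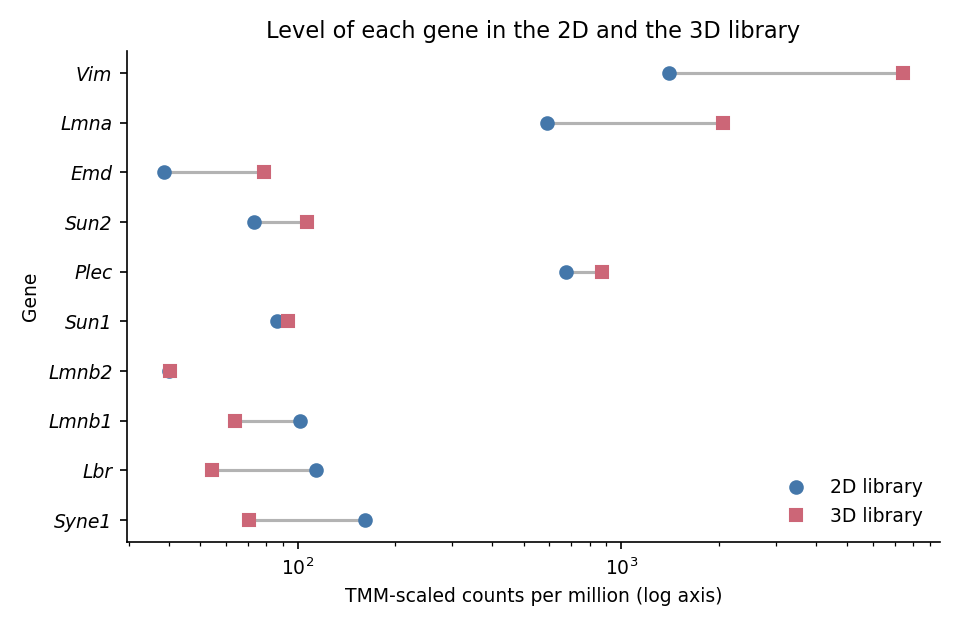
Level of each of the 10 genes in the 2D and the 3D library, as TMM-scaled CPM on a log axis, 1 point per library. Vim stands at 1406 and 7425 and Lmna at 589 and 2062, while Lmnb1, Lbr and Syne1 are lower in 3D.

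Vim (ENSMUSG00000026728, chromosome 2, 13573927 to 13582826, plus strand) was the most abundant of the 10 genes per exon length in both libraries. It had 24871 counts in 2D and 100467 in 3D, or 1406 and 7425 CPM. The ratio was 5.28 (95% interval 5.21 to 5.35), which placed it 111th from the top of all 11673 measured genes. By level per kb of merged exon, Vim stood 90th in 2D and 37th in 3D. Among 13 protein-coding genes with a mean CPM within 1.5-fold of that of Vim, the glycolytic enzyme genes Aldoa (log2 ratio 2.47), Eno1 (2.30) and Ldha (2.02) lay nearest to its log2 ratio of 2.40, a likeness over a single pair of libraries.

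Plec (ENSMUSG00000022565, chromosome 15, 76170974 to 76232574, minus strand) did not share this difference. It had 11909 counts in 2D and 11785 in 3D, or 673 and 871 CPM. Its ratio of 1.29 (1.26 to 1.33) fell below 1 under total counts (log2 ratio -0.23) and lay at 0.01 on the log2 scale under scaling to reference genes. There were 0.479 Plec counts for each Vim count in 2D and 0.117 in 3D, a 4.08-fold lower ratio that no library scaling alters. Within this pair, the change from 2D to 3D was 0.245 (0.238 to 0.252). Exons of Plec share 205 bases, 1.13% of their length, with Parp10 on the same strand.

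Vim stood almost alone among cytoplasmic intermediate filament genes. Of 19 others examined, among them desmin, Gfap, neurofilament and keratin genes, 1 was measured: Nes, which encodes nestin, with 67 counts in 2D and 80 in 3D. The list without Vim summed to 83 counts in 2D and 99 in 3D. Of the plakins, the linker family of plectin, 2 others were measured. Both were at least 2-fold lower in 3D, where 20.8% of all measured genes were. Macf1, a giant actin and microtubule crosslinker, had 10263 and 3274 counts and was 2.40-fold lower (2.31 to 2.50). Dst, which encodes dystonin, had 832 and 280 counts and was 2.27-fold lower. Neither passed 2-fold after the adjustment for GC content, length and expression described below, with log2 ratios of -0.87 for Macf1 and -0.39 for Dst.

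Lmna was higher and Lmnb1 lower in 3D, and Lmnb2 was near equal under TMM scaling. Lmna (ENSMUSG00000028063, chromosome 3, 88480147 to 88509956, minus strand) had 10417 counts in 2D and 27898 in 3D, or 589 and 2062 CPM, a ratio of 3.50 (3.42 to 3.58). Lmnb1 (ENSMUSG00000024590, chromosome 18, 56707813 to 56753424, plus strand), which encodes lamin B1, had 1797 counts in 2D and 866 in 3D and was 1.59-fold lower (1.46 to 1.72). The difference of Lmnb1 passed 2-fold with total counts (log2 ratio -1.27) and with reference genes (-1.03). Lmnb2 (ENSMUSG00000062075, chromosome 10, 80901203 to 80918245, minus strand), the gene of lamin B2, had 708 and 545 counts. Its ratio was 1.01 (0.898 to 1.13) under TMM scaling, with log2 ratios of -0.59 for total counts and -0.36 for the reference genes.

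The makeup of the lamin transcripts shifted toward Lmna, a comparison within each library that scaling does not touch. Lmna made up 80.6% of the 12922 lamin counts in 2D (Wilson interval 79.9% to 81.3%) and 95.2% of the 29309 in 3D (94.9% to 95.4%). Lmnb1 went from 13.9% to 2.96% and Lmnb2 from 5.48% to 1.86%. Per merged exon length the Lmna share was 69.8% in 2D and 91.9% in 3D. Merged exons of Lmna span 5.838 kb and its longest protein-coding transcript 3.156 kb, against 2.962 and 2.843 kb for Lmnb1. The share per length is thus a low estimate for Lmna. There were 5.80 Lmna counts for each Lmnb1 count in 2D and 32.2 in 3D, a change of 5.56 (5.11 to 6.05). Against Lmnb2 the change was 3.48 (3.10 to 3.91), and Lmnb2 over Lmnb1 changed by 1.60 (1.39 to 1.84). The B-type lamin genes thus also differed from each other beyond counting error.

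Of 6 genes that process lamins, 0 were 2-fold higher and 0 lower, where 18.7% and 20.8% of all measured genes were. Their median log2 ratio of 0.35 turned to -0.25 under total counts. In that setting 2 were lower, as were 4292 of 11749 measured genes. Zmpste24, the protease that cuts prelamin A to mature lamin A, had 1604 counts in 2D and 894 in 3D, 1.37-fold lower under TMM scaling, but its log2 ratio turned to 0.46 after adjustment. The farnesyltransferase subunit genes Fntb and Fnta had ratios of 1.90 and 1.49, and Rce1, a protease of the farnesylated end, had 1.97. Narf, whose product binds prelamin A, was 1.40-fold lower.

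**Figure D2:**
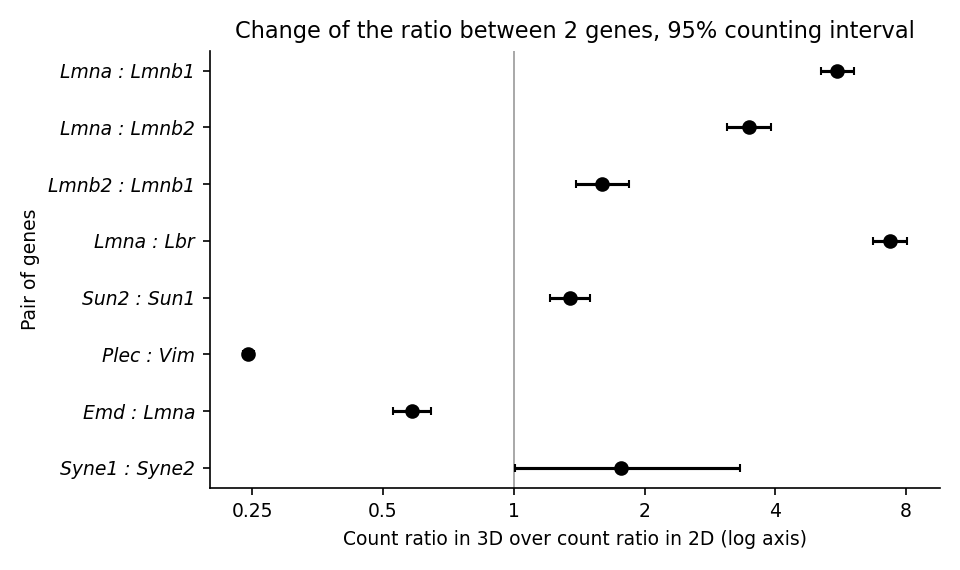
Change from the 2D to the 3D library of the count ratio within pairs of genes, on a log axis with exact 95% counting intervals. Library scaling cancels in these ratios: Lmna over Lbr (7.34) and Lmna over Lmnb1 (5.56) lie farthest above 1, and Plec over Vim (0.245) farthest below.

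Of the lamin partners at the inner nuclear membrane, Lbr was lower and Emd higher in 3D. Lbr (ENSMUSG00000004880, chromosome 1, 181815335 to 181843046, minus strand) encodes a sterol reductase that binds B-type lamins and tethers heterochromatin. It had 2016 counts in 2D and 736 in 3D, or 114 and 54.4 CPM, and was 2.10-fold lower (1.93 to 2.28). Emd (ENSMUSG00000001964, chromosome X, 74254687 to 74261548, plus strand) encodes the LEM domain protein emerin, which binds A-type lamins and the chromatin protein BAF. It had 682 counts in 2D and 1066 in 3D, or 38.6 and 78.8 CPM, a ratio of 2.04 (1.85 to 2.25). The intervals of Lbr and of Emd both span 2. The log2 ratio of Emd was 0.43 with total counts and 0.66 with reference genes, below the 2-fold limit in both. That of Lbr was -1.67 and -1.43, past the limit in both.

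Lmna and Lbr, the 2 tethers of heterochromatin to the envelope in mammalian cells, had the largest change of the pairs compared before adjustment. There were 5.17 Lmna counts for each Lbr count in 2D and 37.9 in 3D, a change of 7.34 (6.72 to 8.02). After the adjustment for GC content, length and expression described below the change was 1.82, less than that of Lmna over Lmnb1 (3.2). Emd over Lmna changed by 0.584 (0.528 to 0.645), and by 1.02 after adjustment. Exons of Emd share 13.6% of their length with the pseudogene Gm14686 on the same strand, which had 0 counts in both libraries. Exons of Lbr share 9.24% with Dnah14 on the opposite strand, which had 4 and 0 counts.

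Other LEM domain genes and Banf1, the gene of BAF, had a median log2 ratio of -0.39 over the 6 measured. Under TMM scaling 0 were at least 2-fold higher and 1 was lower, where 18.7% and 20.8% of all measured genes were. With total counts 3 were lower (median -0.99), where 4292 of 11749 measured genes were. With reference genes 2 were lower (-0.75), where 3461 of 11704 were. The gene lower under TMM scaling was Ankle1, a LEM domain endonuclease, with 434 counts in 2D and 73 in 3D, 4.55-fold lower (3.54 to 5.91). It stayed past 2-fold after the adjustment described below, with log2 ratios of -2.19 before and -2.90 after. Tmpo, which encodes the LAP2 proteins, was 1.99-fold lower, with a log2 ratio of -0.79 after adjustment. Lemd2 was 1.99-fold higher, with a log2 ratio of -0.08 after adjustment. Of 15 other inner membrane and torsin genes measured, 5 were higher and 1 was lower, beside the same shares of 18.7% and 20.8%. Their median of 0.58 stood at -0.02 under total counts. In that setting 0 were higher, where 657 of 11749 measured genes were. The higher genes were the lipin phosphatase gene Ctdnep1 (2.90-fold), the sterol reductase gene Tm7sf2 (2.83-fold), Lrrc59 (2.64-fold), the torsin gene Tor4a (2.58-fold) and the membrane repair gene Chmp7 (2.02-fold). Cnep1r1, the partner of Ctdnep1, was 2.15-fold lower. After the adjustment described below, none of these 15 genes was 2-fold different in either direction. Of all genes, 9.6% were then higher and 9.22% lower.

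Of the LINC complex, the SUN genes differed little and the nesprin gene was lower. Sun1 (ENSMUSG00000036817, chromosome 5, 139200637 to 139249840, plus strand) had 1523 counts in 2D and 1259 in 3D. Its TMM ratio of 1.08 (1.002 to 1.16) turned with total counts (log2 ratio -0.49) and with reference genes (-0.25). Sun2 (ENSMUSG00000042524, chromosome 15, 79724070 to 79742536, minus strand) had 1298 and 1445 counts, a ratio of 1.46 (1.35 to 1.57) that turned under total counts (log2 ratio -0.06). There were 0.852 Sun2 counts for each Sun1 count in 2D and 1.15 in 3D, a change of 1.35 (1.21 to 1.499) that turned to 0.859 after the adjustment for GC content, length and expression described below.

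Syne1 (ENSMUSG00000096054, chromosome 10, 5020917 to 5551482, minus strand) encodes nesprin-1, a giant protein with actin-binding and membrane-anchored forms, which gene-level counts do not separate. It had 2845 counts in 2D and 955 in 3D, or 161 and 70.6 CPM, and was 2.28-fold lower (2.12 to 2.46). Of the other LINC complex and KASH domain genes, 5 of 8 were measured, with 0 higher and 1 lower and a median log2 ratio of -0.23. Of all measured genes 18.7% were higher and 20.8% lower. The lower gene was Syne2, which encodes nesprin-2, with 79 and 15 counts, 4.03-fold lower (2.30 to 7.54). Syne3, which encodes the plectin-binding nesprin-3, had 2356 and 1038 counts and was 1.74-fold lower (1.61 to 1.87). The gene called depends on the setting. After the adjustment for GC content, length and expression described below, Syne3 (log2 ratio -1.54) passed 2-fold and Syne2 (-0.63) did not, where 9.22% of all genes were lower. With total counts or reference genes 2 of the 5 were lower, where 4292 of 11749 and 3461 of 11704 measured genes were. All 3 measured nesprin genes had fewer counts in 3D. There were 36.0 Syne1 counts for each Syne2 count in 2D and 63.7 in 3D, a change of 1.77 (1.004 to 3.32) that turned to 0.863 after adjustment. Syne1, Syne2, Macf1 and Dst belong to 9 measured protein-coding genes with an annotated transcript of at least 20 kb. Of the 9, 6 were at least 2-fold lower and 0 higher. The 6 are Syne1, Syne2, Macf1 and Dst themselves, with Zbtb20 and Neb. The median log2 ratio of the 9, -1.19, is that of Syne1 itself. Among 240 genes with a transcript of at least 10 kb, the same genes included, 114 were lower and 6 higher. The part of transcript length in the low values of Syne1, Syne2, Macf1 and Dst was not tested on its own.

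**Figure D3:**
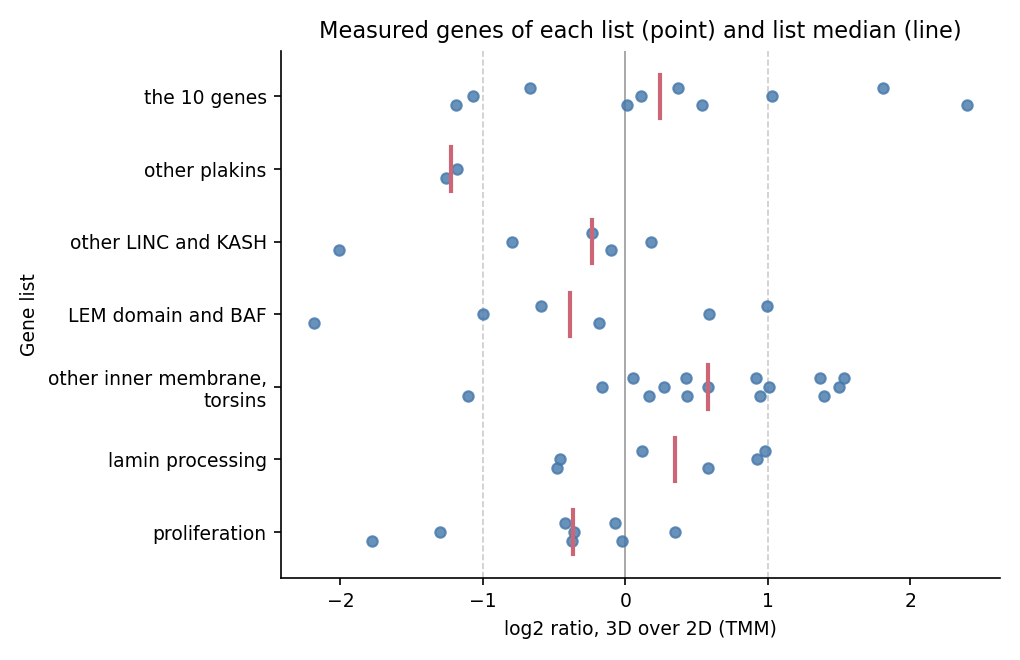
Log2 ratio of each measured gene in the 10 genes and in the related lists, with the median of each list as a line, under TMM scaling. Dashed lines mark 2-fold. The inner membrane and torsin genes have a median of 0.58 (-0.02 under total counts) and the LEM domain genes one of -0.39.

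In order of ratio, the 10 genes ran from Vim through Lmna, Emd, Sun2, Plec, Sun1, Lmnb2, Lmnb1 and Lbr to Syne1. Neighbours in this order differed beyond counting error except for Sun1 and Lmnb2 (1.07, 0.937 to 1.23) and for Lbr and Syne1 (1.09, 0.971 to 1.22). By level per kb of merged exon, the order in 2D was Vim (296.5 CPM per kb), Lmna (101), Plec (37.2), Lmnb1 (34.3), Lbr (23.9), Emd (15.3), Sun2 (13.5), Sun1 (11.3), Lmnb2 (9.34) and Syne1 (3.97). In the 3D library Lmna (353) and Plec (48.1) followed Vim (1565), Emd (31.3) stood above Lmnb1 (21.6) and Sun2 (19.7), and Lbr (11.4) stood below Sun1 (12.2). By this length, Sun1 and Lbr in 3D were the only neighbours by level within counting error of each other (1.07, 0.978 to 1.18). Merged exons include every annotated transcript, so the level per kb of a gene with many forms is a low estimate. They span 4.743 kb for Vim, 5.838 for Lmna, 7.596 for Sun1 and 40.491 for Syne1. The longest protein-coding transcripts of these genes span 2.193, 3.156, 4.134 and 27.908 kb, while Lmnb1 has 2.962 and 2.843 kb. The order of close neighbours can therefore change with the length taken.

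Across all genes, the ratio was higher for transcripts of higher GC content. Over 10 bins of protein-coding genes by GC content of the longest protein-coding transcript, the median of log2 ratios was -1.34 in the lowest bin and 0.99 in the highest. GC content, exon length and mean expression together took up 47.1% of the variance. Of the 10 genes, Vim, Lmna and Emd lay above the median of their own bin and the other 7 below it. Vim (53.9% GC), Emd (53.4%) and Lmnb1 (53.3%) share a bin of 1053 genes with a median of 0.49. In that bin 0.855% of genes had a higher ratio than Vim, 23.6% a higher one than Emd and 92.0% a higher one than Lmnb1. Lmna (59.3% GC) and Plec (61.3%) belong to the highest bin, where 10.5% and 77.2% of genes had a higher ratio. Lbr, with 44.2% GC, lay in a bin with a median of -0.82, where 60.2% of genes had a higher ratio. Syne1, with 50.6%, lay in one with a median of 0.30, where 94.7% had a higher ratio.

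After adjustment of the log2 ratio for these 3 properties, 0 of the 10 genes were at least 2-fold higher, where 9.6% of all genes were, and 1 was lower, Lmnb1, where 9.22% of all genes were. The adjusted log2 ratios were 0.79 for Vim, 0.26 for Emd and 0.22 for Lmna, so that none of the 3 kept a 2-fold difference. Those of Syne1 (-0.84), Lmnb2 (-0.76), Plec (-0.75), Lbr (-0.64), Sun2 (-0.36) and Sun1 (-0.14) were below 0, and that of Lmnb1 was -1.46. The value for Vim depends on the transcript taken: with the longest transcript of any class, whose GC content is 46.5%, the adjusted log2 ratio was 1.56. That of Lmna was then 0.58. The shift of lamin makeup kept its direction, since Lmna over Lmnb1 changed by 3.2 after adjustment. An adjustment of this kind also removes any biological difference that runs along GC content, length or expression.

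**Figure D4:**
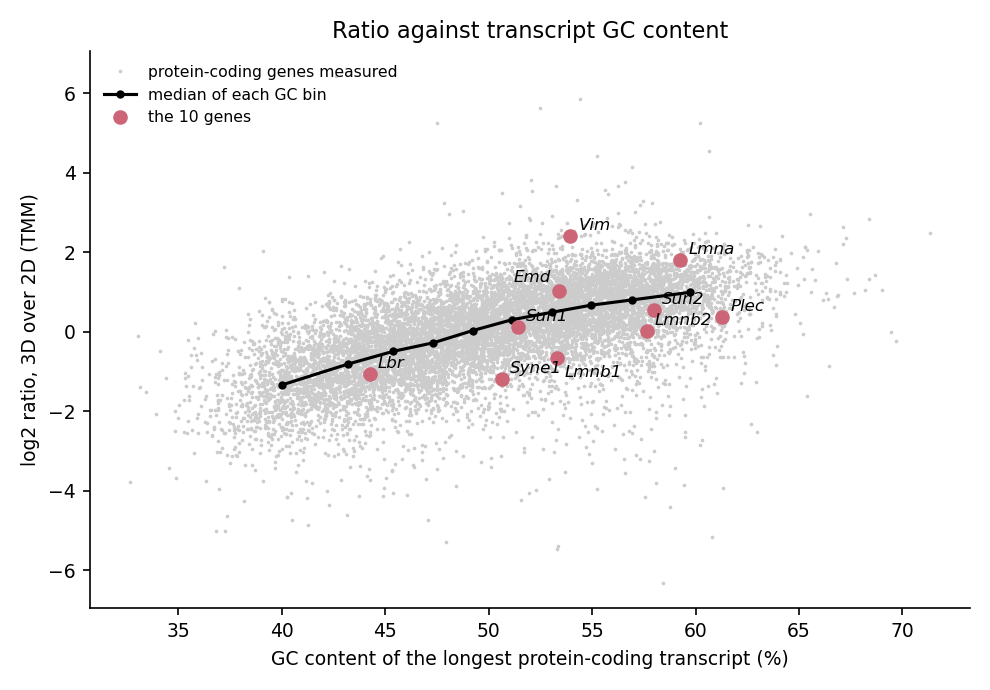
Log2 ratio of protein-coding genes (grey points) against the GC content of their longest protein-coding transcript, with the median of 10 GC bins (line) and the 10 genes (large points). Vim, Lmna and Emd lie above the line and the other 7 below it.

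**Figure D5:**
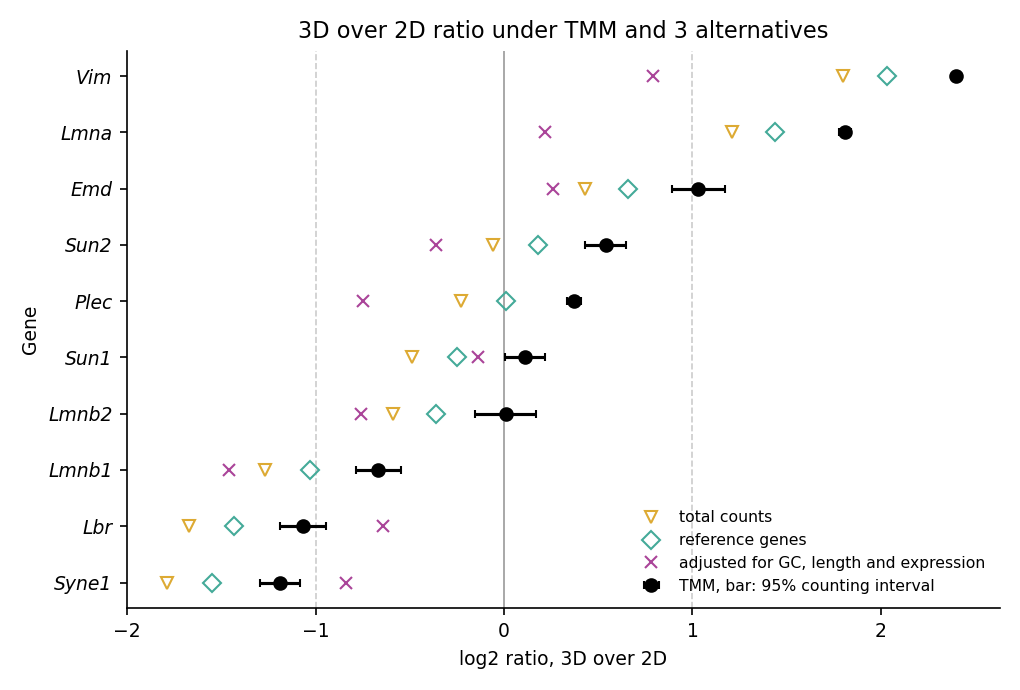
Log2 ratio of each of the 10 genes under TMM scaling with its 95% counting interval, and under total counts, reference genes and the adjustment for GC content, length and expression. Dashed lines mark 2-fold. Vim lies between 0.79 and 2.40, and Lmnb1, Lbr and Syne1 lie below 0 in all 4 versions.

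Markers of the labelled cell type were present in both libraries, with all 10 macrophage markers measured and a summed level of 3533 CPM in 2D and 10140 in 3D. By the 2-fold rule 7 were higher in 3D, where 18.7% of all measured genes were, and Ptprc was lower. With total counts 4 were higher and 2 lower, where 657 and 4292 of 11749 measured genes were. After adjustment 0 were higher and 0 lower, where 9.6% and 9.22% of all genes were. The median log2 ratio of the markers went from 1.41 under TMM to 0.05. Vim and Lmna are also abundant in fibroblasts, and 0 of 8 fibroblast markers were measured, with 36 counts in all in 2D and 28 in 3D and Col3a1 and Lum at 0 in both. The 6 epithelial markers summed to 5 and 15 counts, the 5 endothelial markers to 392 and 754, of which Vwf held 357 and 714, and the 6 hepatocyte markers to 10 and 311. Of the hepatocyte markers 2 were measured, Alb with 8 and 232 counts and Ahsg with 1 and 38. Both were at least 2-fold higher in 3D, where 18.7% of all measured genes were. They stayed so after adjustment (log2 ratios 5.62 and 6.01), where 9.6% of all genes were higher. The part of the endothelial and hepatocyte counts in the results was not tested. Proliferation genes had ratios from -1.78 (Mki67) to 0.35 (Mcm2) on the log2 scale. Of the 8, 2 were at least 2-fold lower, Mki67 and Top2a, where 20.8% of all measured genes were. With total counts 3 were lower, where 4292 of 11749 measured genes were. After adjustment 1 was lower, Mki67 (log2 ratio -1.735), where 9.22% of all genes were, and Top2a lay at -0.80. Lmnb1, Lbr and Tmpo are also known to follow proliferation, and the part of this in their lower values was not tested.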

How the data were processed

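The authors deposited counts of reads per Ensembl gene for each library, made with Trimmomatic, HISAT2 and HTSeq on build mm10, per the submitters' processing notes. The TruSeq kit marks strand, per the labels' protocols. Versions, strand option and annotation release: not given in the sources used here. Thus counts of overlapping genes are uncertain. No row lacked a gene.

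Identifiers were matched to GENCODE M21 (52403 of 52550). Counts were scaled with TMM (edgeR 4.0.16, R 4.3.3), with factors of 1.23 for the 2D and 0.813 for the 3D library. Ratios are CPM in 3D over CPM in 2D, with exact conditional (Clopper-Pearson) 95% counting intervals. Pairs of genes have exact conditional odds ratios. A gene was called at 2-fold. The adjustment used natural cubic splines (4 degrees of freedom, patsy 1.0.2). The reference gene scaling set the median log2 ratio of 20 genes to 0. The code was tested on simulated data.

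Named were all 10 genes, up to 4 genes of each related list with the largest absolute log2 ratio and any that complete a count of 5 or fewer. Zmpste24 falls outside this rule and was named after its value was seen. The 10 genes and all lists were chosen with earlier results of these data known. Alternatives were DESeq2 1.42.0 size factors, total counts, upper quartile, reference genes, no filter, a minimum of 5 CPM, 1 CPM as a pseudocount, limits at 1.5-fold or 4-fold, the bound of the interval, thinning to 0.5 of the smaller total and the adjustment. The GC content of the longest transcript of any class was an alternative chosen after seeing the data, and the longest protein-coding transcript was taken as the basis after the same look. Promoters came from RefSeq (GRCm38.p6). Motifs searched on both strands also included the E2F letters TTTGGCGC and TTTCCCGC, in 0.51% and 1.07% of all windows and in none of those of the 10 genes that were searched. Plec had no window and that of Lmnb1 was not used.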

Additional observations from a re-analysis of the deposited data

How the results depend on the processing

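No library could be left out in turn and no paired analysis was possible, since each culture method had 1 library. DESeq2 size factors, upper quartile scaling, no filter, a minimum of 5 CPM and a pseudocount of 1 CPM kept the counts of 3 genes higher and 2 lower.

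Scaling moved the zero point. The median log2 ratio of the 10 genes became -0.36 under total counts and -0.12 under reference genes, beside all-gene medians of -0.56 and -0.32. Under both, Emd was no longer called and Lmnb1 was. The adjusted median was -0.50, with 0 genes higher and 1 lower. With the GC content of the longest transcript of any class it was -0.52, with 1 higher (Vim) and 1 lower (Lmnb1). At 4-fold 1 gene was higher (Vim) and 0 were lower. With the interval bound required to pass 2-fold, 2 were higher and 1 was lower. After thinning, Emd missed the limit at 0.99 and Lmnb2 lay at -0.05 on the log2 scale.

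Adjusted changes within pairs, with the value for the longest transcript of any class second, were 3.2 and 4.18 for Lmna over Lmnb1, 1.97 and 2.57 for Lmna over Lmnb2, 1.82 and 2.45 for Lmna over Lbr, and 0.344 and 0.204 for Plec over Vim. Sun2 over Sun1 turned to 0.859 and 0.911, and Syne1 over Syne2 to 0.863 and 0.875. Emd over Lmna turned to 1.02 in the first and was 0.786 in the second. The cause was not tested.

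Depth limits the value of Syne2, with 15 counts in the 3D library.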
